A study of Gallus gallus with 2 samples.

Results

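The genes of voltage-gated and related ion channels were compared between control cells and Sox4/Sox11 knockdown cells of the chicken neural tube. Members are all chicken probe sets whose single gene symbol in the platform annotation begins with KCN, CACN, HCN or SCN and continues as a channel name. They number 202 of 37693 chicken probe sets and stand for 99 of 13008 genes, namely 70 potassium, 18 calcium and 10 sodium channel genes and the cation channel gene HCN4. The control sample is GFP-sorted neural tube cells that carry the plasmid pSuper-neo-GFP. The knockdown sample is sorted cells electroporated with this plasmid bearing a Sox4 short hairpin together with this plasmid bearing a Sox11 short hairpin. No hairpin is named in the label of the control. Per the labels, embryos were electroporated at Hamburger-Hamilton stage 9 and collected at stage 11, with an incubation of 2 days that does not obviously go together with those stages. Both samples share the vector, the electroporation and the sort, and the number of embryos in each is not stated in the labels. The study's title places the comparison in a search for genes regulated by SoxC factors during spinal cord neurogenesis. There was 1 Affymetrix array per group, so no difference could be tested. The words "higher" and "lower" refer to these 2 arrays alone, whose number limits the precision of every value.

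Voltage-gated channels open when the membrane potential changes. Sodium channels carry the rising phase of an action potential, calcium channels couple depolarisation to calcium entry and transmitter release, and potassium channels repolarise the membrane. Inward rectifier channels and background channels with paired pore domains set the resting potential, and calcium-activated potassium channels shape the pause after a spike. Most of these channels pair a pore-forming subunit with auxiliary subunits that steer its gating or its transport to the membrane. Young neurons gain voltage-gated channels as they differentiate and become excitable.

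Chicken probe sets had median signals of 113 (control) and 134 (knockdown), after scaling to an equal trimmed mean. Background, the 95th percentile of 687 viral probe sets, was 63.6 in the control and 65.8 in the knockdown. A gene stands for its brightest probe set and is called measured when the geometric mean of its 2 signals is at least 118, the median of chicken probe sets. Of the hairpins' targets, SOX4 went from 6604 to 3157 (log2 ratio -1.06) and SOX11 from 4552 to 2790 (log2 ratio -0.71). Every log2 ratio below is knockdown over control, so a negative value is a lower signal in the knockdown. Neural markers were present, with 15 of 15 progenitor genes and 27 of 28 pan-neuronal genes above background on both arrays. Of all genes, 78.2% lay above background on both arrays, as did 12 of 12 blood and 16 of 16 endothelial genes.

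Many channel genes lay near or below background. Of the 99 genes, 38 (38.4%) were measured, against 9303 of 13008 (71.5%) among all genes. A further 12 channel genes lay above background on both arrays without reaching the measured level, 6 lay above it in the control only, 9 in the knockdown only, and 34 on neither array. Of all genes, 3.08% lay above background in the control only, 5.16% in the knockdown only and 13.6% on neither array. A gene below background on both arrays gets no fold. Levels of different probe sets cannot be set against each other, so the order of channels by abundance is not given. In the plot of control against knockdown signals, the measured genes lie along the diagonal, with KCND2 and CACNG4 below the 2-fold line and KCNJ15 just above the opposite one.

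**Figure D1:**
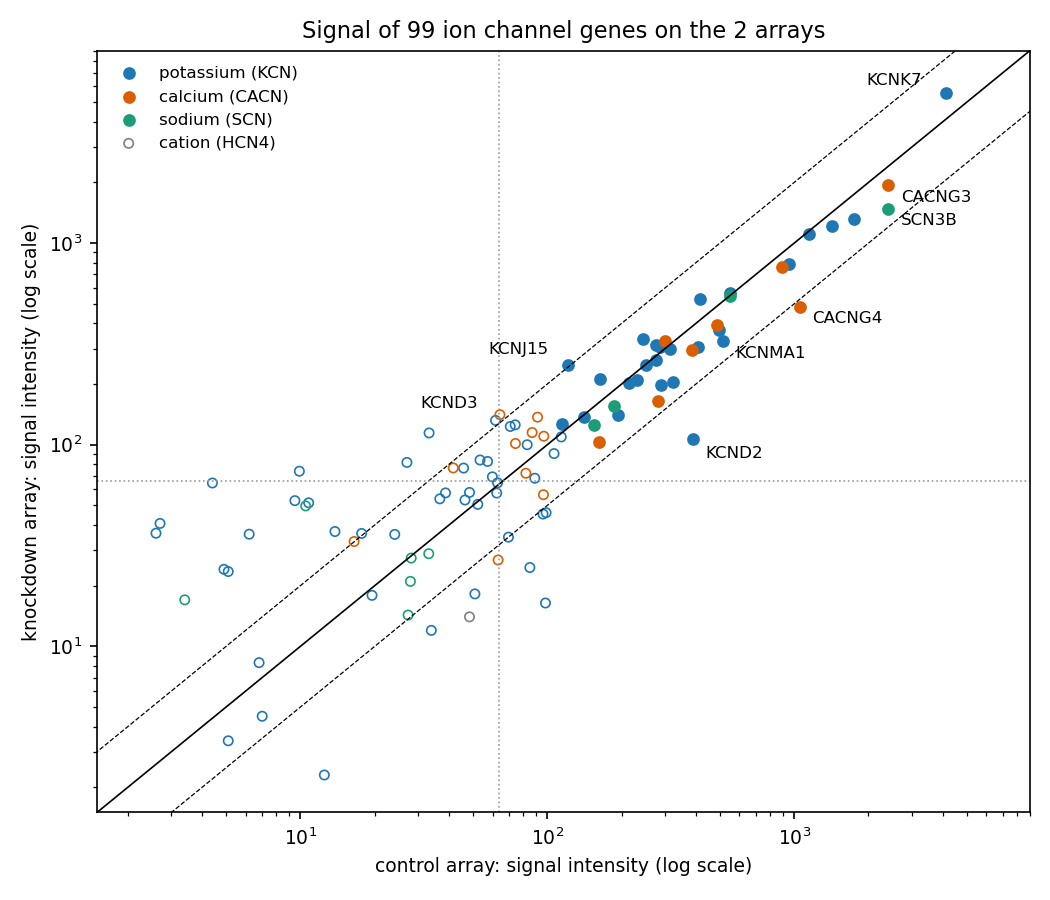
Signal of the brightest probe set of each of the 99 channel genes on the control array (x axis) and the knockdown array (y axis), both in signal intensity on log scales. Filled points are the 38 measured genes and open points the other 61, dashed lines mark 2-fold, dotted lines mark background at 63.6 and 65.8, and most open points sit near or below background.

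Among the 38 measured channel genes, 28 had a lower signal in the knockdown and 10 a higher one, a split of 33 and 5 with quantile normalization or loess centring. The median log2 ratio was -0.22, against 0.02 over all 9303 measured genes, of which 47.9% lay below 0. This channel median depended on the filter and on the probe sets used. It was -0.07 with all probe sets of a gene averaged, where the median over all genes was 0.14. The channel median was -0.02 over 72 genes with the filter at the 25th percentile, where the median over all genes was 0.05. With that filter and with no filter, signals below background were set to background. Every gene below background on both arrays then took 1 fixed value, the log2 ratio of the 2 backgrounds (0.05). With no filter the medians of the channel genes and of all genes both fell on this value, so they show no measured shift. The median of all genes with the filter at the 25th percentile fell on it too. At least 2-fold lower were 2 measured channel genes, KCND2 and CACNG4, where 1.06% of all measured genes were that much lower. At least 2-fold higher was 1, KCNJ15, where 3.64% of all measured genes were that much higher. With a threshold of 1.5-fold, 7 measured channel genes were lower and 1 was higher, against 5.71% and 11.4% of all measured genes. The 7 became 12 with quantile normalization and with loess centring, where 8.13% and 7.80% of all measured genes were that much lower. At the 25th percentile 8 channel genes were lower and 7 higher, against 5.91% and 12.9% of all genes. With all probe sets averaged 8 were lower and 4 higher, against 5.87% and 18.7% of all genes. The split around 0 was 38 and 34 at the 25th percentile, where the fixed value of 0.05 counts as higher. It was 23 and 15 with all probe sets averaged. The split between higher and lower depended on the scaling for all genes, with 2.25% at least 2-fold higher and 1.81% lower after quantile normalization. The channel genes then gave 0 higher and the same 2 lower. RNA came from whole sorted populations, so fewer cells of a type and less RNA per cell cannot be told apart.

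The families are given apart by their medians. The 26 measured potassium channel genes had a median log2 ratio of -0.07 (17 below 0), the 8 calcium channel genes -0.35 (7 below 0) and the 4 sodium channel genes -0.28 (all below 0). In comparison, 47.9% of all measured genes lay below 0. At least 1.5-fold lower were 3 measured potassium channel genes, 3 calcium channel genes and 1 sodium channel gene, where 5.71% of all measured genes were that much lower. Most potassium channel genes, 22 of 26, lay within 1.5-fold, as did 7711 of all 9303 measured genes. The potassium median was -0.29 with quantile normalization, against -0.03 over all measured genes. With no filter on low signal the potassium and sodium medians were both 0.05, the fixed ratio of the 2 backgrounds and not a measured value. The calcium median was then -0.07, midway between that fixed ratio and the -0.18 of CACNA1C, a gene not measured. These medians describe small and unequal lists, and the differences between them were not tested.

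**Figure D2:**
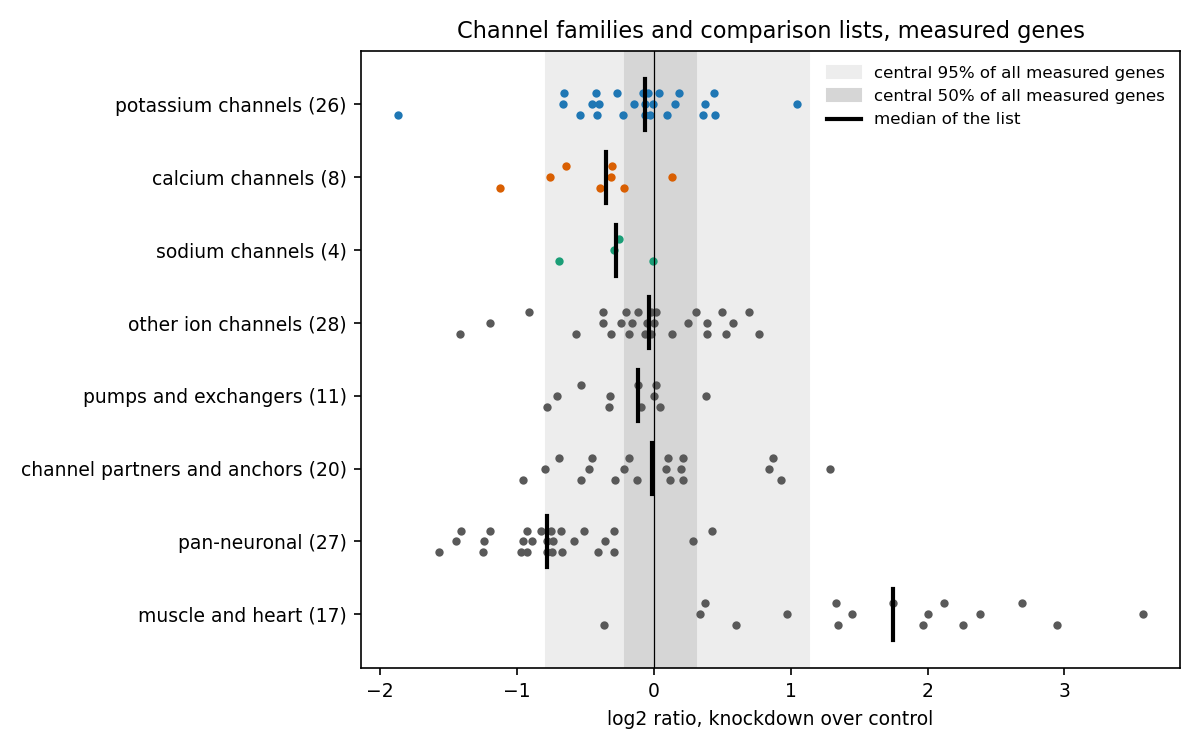
Log2 ratio, knockdown over control (x axis), of the measured genes of each channel family and of 5 comparison lists (y axis, with the number of measured genes). Points are genes, black bars are medians, and grey bands hold the central 50% and 95% of all measured genes; the calcium and sodium medians lie at -0.35 and -0.28, the pan-neuronal median at -0.78 and the muscle and heart median at 1.75.

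Among voltage-gated potassium channels, KCND2 stood apart. It encodes Kv4.2, the pore of a fast-inactivating A-type current in neurons, and gave 390.3 on the control array against 107 on the knockdown one. This is 3.65-fold lower (log2 ratio -1.87), and only 1 of the 9303 measured genes had a lower ratio. KCND2 rests on a single probe set. KCND3, which encodes the related Kv4.3, had 61.7 in the control, below background, and 132 in the knockdown, so its signal was at least 2.08-fold higher. The 2 genes of the Kv4 group thus lay on opposite sides, though KCND3 was not among the measured genes. KCNIP4, which encodes a calcium-binding partner of Kv4 channels, had 552 and 566 (log2 ratio 0.04). KCNIP1, another such partner, had 89.0 and 68.2, and KCNIP2 lay below background on both arrays.

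The Kv1 group was even where it was measured. KCNA2, a delayed rectifier of axons, had a control signal of 276 and a knockdown signal of 263 (log2 ratio -0.07), and KCNA5 had 231 and 209 (log2 ratio -0.15). KCNA1, KCNA3, KCNA4 and KCNA10 lay below background on both arrays. The beta subunits that bind Kv1 channels inside the cell differed little by their brightest probe sets, with 1417 and 1214 for KCNAB1 (log2 ratio -0.22) and 1153 and 1116 for KCNAB2 (log2 ratio -0.05). The other measured KCNAB2 probe set had 831.5 and 597 (log2 ratio -0.48). A KCNAB2 probe set under the measured level had 29.9, below background, and 89.2 (at least 1.40-fold higher). With all probe sets averaged KCNAB2 was at 0.25.

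Of the Kv3 group, which serves fast spiking, KCNC2 had 495 and 370.2 (log2 ratio -0.42). KCNC1 had 96.1 in the control and 45.3 in the knockdown, below background there, and so was at least 1.46-fold lower. KCNQ1, a Kv7 channel known best from heart and inner ear in mammals, had 288 and 198 (log2 ratio -0.54), just inside 1.5-fold. KCNQ3 and KCNQ5 lay below background on both arrays by their brightest probe sets, though another KCNQ3 probe set had 33.9 and 68 (at least 1.07-fold higher). No member of the KCNH group (EAG, ERG and ELK channels) was measured. KCNH5 had 85.0 in the control and 24.6 in the knockdown (at least 1.29-fold lower), KCNH7 had 114 and 109, and KCNH6 had 53.4 and 84 (at least 1.32-fold higher).

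Modifier subunits do not form channels alone and join Kv2 subunits. Of 10 such genes, 2 were measured, and neither kept its direction throughout. KCNG1 had 164 and 213 by its brightest probe set (log2 ratio 0.38) and 150 and 109 by its other one (log2 ratio -0.46). KCNG2 had 115 and 127 (log2 ratio 0.15), but its ratio was -0.10 with quantile normalization and -0.08 with loess centring. KCNF1 had 107 and 90.4, KCNS2 had 27.0 and 81.7 (at least 1.29-fold higher), and KCNG4 had 9.9 and 73.9 (at least 1.16-fold higher). KCNV1 had 69.6 and 34.8 (at least 1.06-fold lower), and KCNG3, KCNS1, KCNS3 and KCNV2 lay below background on both arrays. KCNRG, which encodes a regulator of channel assembly and not a channel, had 951 and 787 (log2 ratio -0.27). The single-pass auxiliary subunit genes KCNE1, KCNE2, KCNE3 and KCNE4 were all below background on both arrays by their brightest probe sets. Another KCNE4 probe set had 16.1 and 82.6 (at least 1.299-fold higher).

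Calcium-activated channels held the other 2 measured potassium channel genes past 1.5-fold on the lower side. KCNMA1, the pore of the large-conductance BK channel, had 516 in the control and 326 in the knockdown, which is 1.59-fold lower (log2 ratio -0.66). KCNN2, the small-conductance channel SK2, had 322 and 204, which is 1.58-fold lower (log2 ratio -0.66). Its relative KCNN1 went the other way, with 244 and 334 (log2 ratio 0.45), and lay within 1.5-fold. The BK auxiliary subunit gene KCNMB4 was even, with 250.2 and 249 (log2 ratio -0.01). KCNMB2, a BK subunit that confers inactivation, had 33.2 in the control and 114 in the knockdown (at least 1.799-fold higher), and KCNMB1 lay below background on both arrays. The sodium-activated channel gene KCNT1 had 407 and 304 (log2 ratio -0.42) by its brightest probe set. By its other measured probe sets KCNT1 was at -0.35 and 0.35. By a probe set under the measured level it had 55.9, below background, and 145 (at least 2.28-fold higher). KCNT2, its relative, had 74.1 and 126 (1.69-fold higher), and KCNU1 had 82.9 and 100.0; neither was measured.

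The inward rectifier group held the only measured channel gene at least 1.5-fold higher. KCNJ15, which encodes Kir4.2, had 121 in the control and 249.7 in the knockdown, which is 2.06-fold higher (log2 ratio 1.04). Of all measured genes, 3.24% had a higher ratio. The other probe set of KCNJ15 lay below background on both arrays, at 32.0 and 53.1. The 4 other measured inward rectifier genes lay within 1.5-fold. KCNJ2, which encodes the classical strong rectifier Kir2.1, had 214 and 202 (log2 ratio -0.08). KCNJ3 and KCNJ5, which encode G protein-gated channels, had 140.4 and 138 (log2 ratio -0.03) and 275 and 313 (log2 ratio 0.19). KCNJ5 probe sets under the measured level had 59.5 and 90.3 (at least 1.42-fold higher) and 14.3 and 128 (at least 2.01-fold higher). KCNJ8, the pore of an ATP-sensitive channel, had 193 and 141 (log2 ratio -0.46). KCNJ12 had 70.8 and 123 (1.74-fold higher) and KCNJ1 45.8 and 76.6 (at least 1.20-fold higher), both without reaching the measured level. KCNJ4, KCNJ6 and KCNJ16 lay below background on both arrays. In the RefSeq order of genes KCNJ15 and KCNJ6 are neighbours, and only KCNJ15 was measured.

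Background channels with paired pore domains were even where they were measured, by their brightest probe sets. All 5 such genes lay within 1.5-fold, from -0.40 for KCNK2 to 0.44 for KCNK7. KCNK2, the mechanosensitive channel TREK-1, had 1743 and 1319 by its brightest probe set. KCNK10, the related TREK-2, had 315 and 300.0 (log2 ratio -0.07), and KCNK12 had 286 and 306 (log2 ratio 0.10). KCNK5, an acid-sensitive channel, had 414 and 530.3 (log2 ratio 0.36), and KCNK7 had 4112 and 5564. Other KCNK7 probe sets, far under that level, had 68.6 and 71.9, and 6.4, below background, and 70 (at least 1.10-fold higher). With all probe sets averaged KCNK7 was at 1.32. These 5 genes show no common direction. KCNK3, another acid-sensitive channel, was above background in the control only, with 98.9 and 46.0 (at least 1.503-fold lower), and its other probe set gave 93 and 48.1. KCNK17 had 98.3 and 16.4 (at least 1.49-fold lower), and KCNK18 had 57.3 and 82.6 (at least 1.299-fold higher). KCNK4, KCNK13, KCNK15 and KCNK16 lay below background on both arrays.

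**Figure D3:**
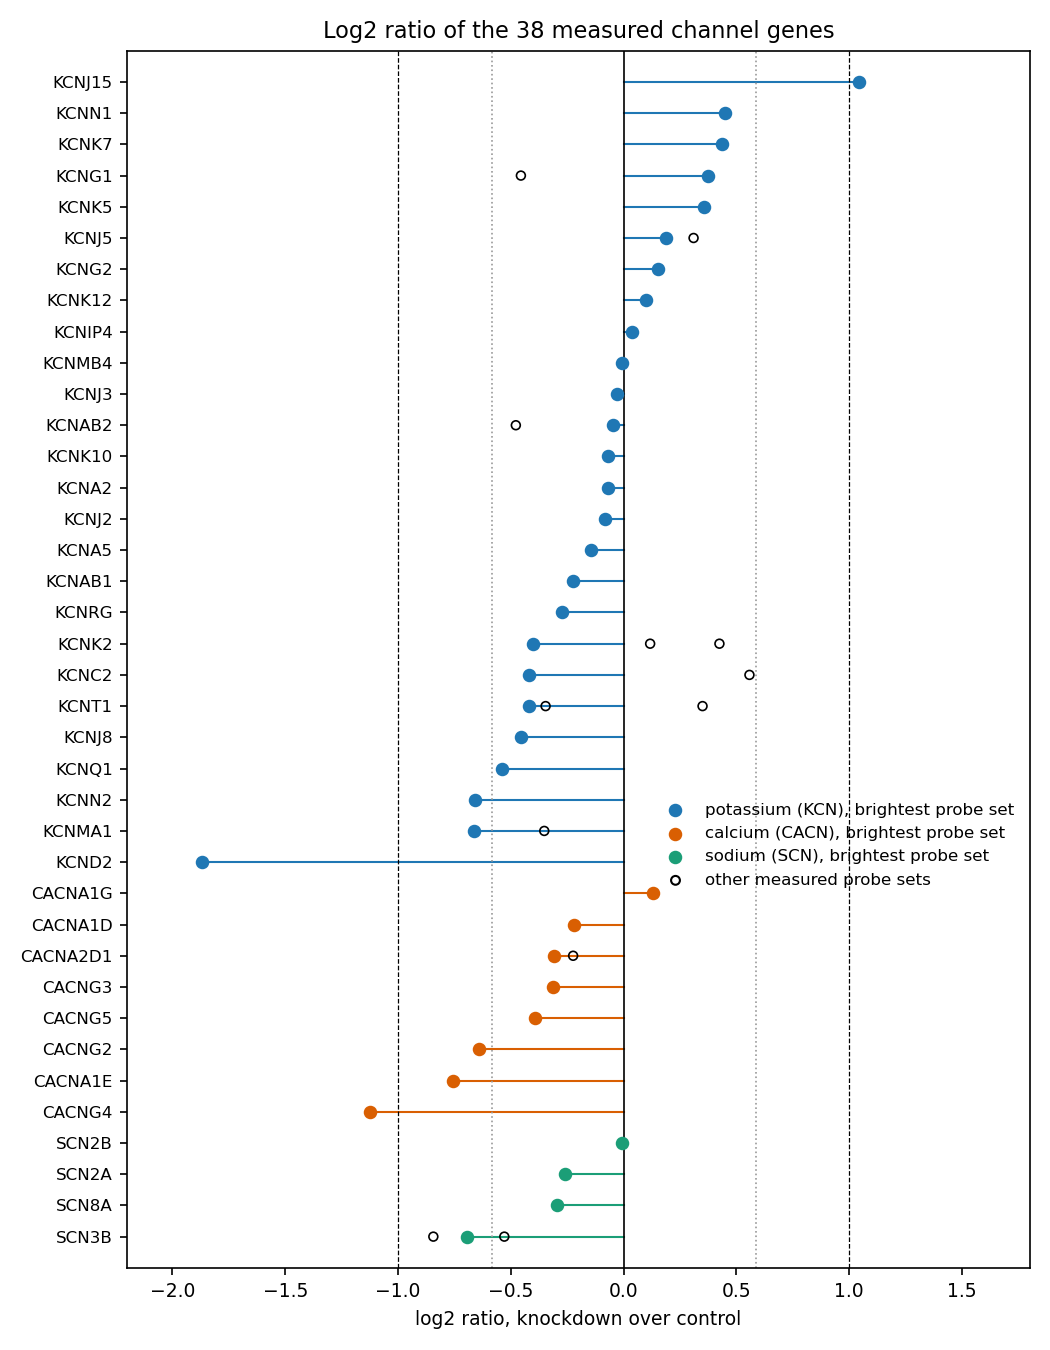
Log2 ratio, knockdown over control (x axis), of the 38 measured channel genes (y axis), by family. Filled points with a line from 0 are the brightest probe sets, open circles other measured probe sets of the gene, dotted lines mark 1.5-fold and dashed lines 2-fold; KCND2 at -1.87 lies farthest from 0 and KCNJ15 at 1.04 is the only gene above 1.5-fold.

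Calcium channel genes were lower in 7 of 8 measured cases, with CACNG4 the lowest, where 47.9% of all measured genes were lower. Above background on at least 1 array without being measured, CACNA1B, CACNA1H, CACNA1S, CACNA2D2, CACNA2D3 and CACNB4 were higher, and CACNA1C and CACNB2 lower. CACNG4 encodes a gamma subunit that in mammals also acts as a transmembrane partner of AMPA-type glutamate receptors. It had 1056 in the control and 484 in the knockdown, which is 2.18-fold lower (log2 ratio -1.13), and 0.677% of measured genes had a lower ratio. All 4 measured gamma subunit genes were below 0. CACNG2, known as stargazin, had 162 and 104, which is 1.56-fold lower (log2 ratio -0.64). CACNG5 had 386 and 294 (log2 ratio -0.39), and CACNG3 had 2410.2 and 1938 (log2 ratio -0.31). Their median was -0.52. CACNG1, the gamma subunit of skeletal muscle and the neighbour of CACNG4 in RefSeq gene order, lay below background on both arrays at 63.2 and 26.8.

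Of the 8 pore-forming calcium channel genes, 3 were measured. CACNA1E, the R-type channel of neurons, had 279.6 in the control and 165 in the knockdown, which is 1.69-fold lower (log2 ratio -0.76). CACNA1D, an L-type channel, had 892 and 764 (log2 ratio -0.22), and CACNA1G, a T-type channel that opens near rest, had 299 and 328 (log2 ratio 0.13). CACNA1G was the only measured calcium channel gene above 0, and it too lay below 0 with quantile normalization (-0.10) and loess centring (-0.08). It stayed above 0 in 4 of 6 other settings, at 0.20 with all probe sets averaged. CACNA1G probe sets under the measured level had 133 and 98.1 (log2 ratio -0.44), and 62.6, below background, and 103 (at least 1.62-fold higher). Below the measured level, CACNA1B, the N-type channel of presynaptic endings, had 91.3 and 137 (1.501-fold higher), the T-type gene CACNA1H 86.8 and 115, and the L-type gene CACNA1C 81.9 and 72.2. CACNA1S, the L-type channel of skeletal muscle, had 41.6 in the control, below background, and 76.7 in the knockdown (at least 1.21-fold higher). CACNA1I lay below background on both arrays.

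Auxiliary alpha2delta and beta subunits bring pore subunits to the membrane. CACNA2D1 had a control signal of 486 and a knockdown signal of 393 (log2 ratio -0.31), and its other measured probe set had 273 and 234 (log2 ratio -0.22). CACNA2D2 had 64.3, barely above background, and 141 (2.19-fold higher), and CACNA2D3 had 96.8 and 110.2; neither was measured. Of the beta subunit genes, CACNB2 had 96.5 and 56.5 (at least 1.47-fold lower) and CACNB4 had 74.3 and 101. No direction was shared by the auxiliary genes outside the gamma group.

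All 4 measured sodium channel genes were below 0, as were 47.9% of all measured genes, and the auxiliary subunit gene SCN3B was the lowest. SCN3B encodes the beta3 subunit, which is known from the developing nervous system of mammals. It had 2403 in the control and 1483 in the knockdown, which is 1.62-fold lower (log2 ratio -0.70). Its other 2 probe sets, both measured, had 427 and 296 (log2 ratio -0.53) and 221 and 123 (log2 ratio -0.84). SCN3B was the only one of the 99 genes with 3 measured probe sets that all gave the same direction. SCN2B, another auxiliary subunit gene, was even, with 548 and 545 (log2 ratio -0.01). With all probe sets averaged, SCN2B (0.48) and SCN2A (1.66) lay above 0, though their other probe sets were below background on both arrays.

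The pore-forming sodium channel genes gave little signal. SCN2A, a main channel of the axon, had a control signal of 186 and a knockdown signal of 155 (log2 ratio -0.26). SCN8A, the channel of mature axon initial segments, had 154 and 126 (log2 ratio -0.29). Both lay within 1.5-fold by their brightest probe sets. Another SCN8A probe set, below the measured level, had 124 and 66.0 (1.88-fold lower), the knockdown signal barely above background. SCN1A, SCN3A, SCN4A, SCN9A, SCN11A and the auxiliary SCN4B lay below background on both arrays. SCN2A and SCN3A are neighbours in RefSeq gene order and similar in sequence. The probe sets that stand for SCN2A and SCN8A carry the suffix for probes that match several transcripts, as do those of 4 other measured channel genes (CACNA1E, CACNA1G, KCNG1 and KCNK5). HCN4, the hyperpolarization-activated pacemaker channel and only HCN gene analysed here, had 48.4 and 14, below background on both arrays.

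Probe sets of the same gene share the sample and are no replicates, but they show how far a ratio depends on the stretch of transcript probed. Of the 38 measured genes, 9 had more than 1 measured probe set. In 5 of them (SCN3B, KCNMA1, CACNA2D1, KCNAB2 and KCNJ5) all measured probe sets gave the same direction, and in 4 (KCNK2, KCNT1, KCNC2 and KCNG1) they did not. KCNC2 ranged from -0.42 to 0.56 and KCNK2 from -0.40 to 0.42. Over all genes with several measured probe sets, 46.9% had 1 direction throughout, and the median size of the difference from the brightest was 0.41 on the log2 scale. The ratios of KCNMA1 (-0.66 and -0.35) and CACNA2D1 were closer together than that. KCND2, CACNG4, CACNG2 and KCNN2 have 1 probe set each and allow no such comparison.

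**Figure D4:**
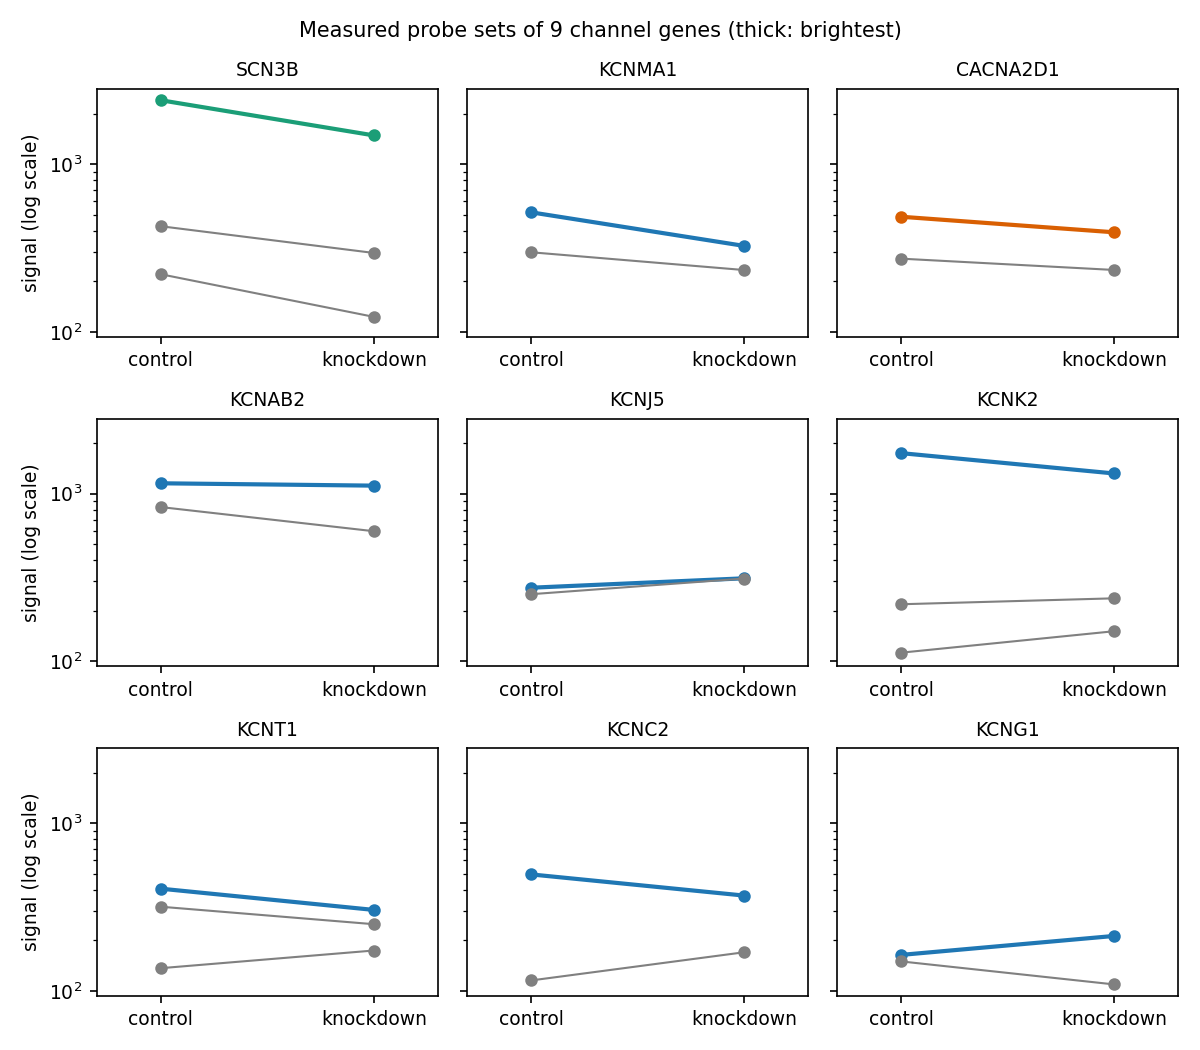
Signal (y axis, log scale) of every measured probe set on the control and knockdown arrays for the 9 channel genes with more than 1. Thick coloured lines are the brightest probe sets and grey lines the others; the 3 lines of SCN3B all slope down, while those of KCNK2, KCNT1, KCNC2 and KCNG1 slope both ways.

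The labelled RNA differed between the arrays. The ratio of 3′ to 5′ signal was 5.45 in the control and 1.85 in the knockdown for the actin control transcript, 2.92 and 1.505 for EF1A, and 1.25 and 1.05 for GAPDH. Across genes measured by several probe sets, median log2 ratios were -0.05 for the brightest and 0.21 for the others. For channel genes these medians were -0.40 over 9 genes and -0.28 over 12 other probe sets. The part of this difference in the channel ratios was not tested.

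Genes that work beside these channels were taken from lists of other ion channels, of pumps and exchangers, and of channel partners and anchors. Of 28 measured other ion channel genes, 3 were at least 1.5-fold lower and 2 higher, with a median log2 ratio of -0.04. Of all measured genes, 5.71% were that much lower and 11.4% that much higher, with a median of 0.02. The 3 lower genes were glutamate receptor genes. The kainate receptor subunit genes GRIK1 and GRIK3 had 332 and 124 (log2 ratio -1.42) and 327 and 142 (log2 ratio -1.20), and the AMPA receptor subunit gene GRIA2 had 977 and 519 (log2 ratio -0.91). The 2 higher genes were ITPR3, an intracellular calcium release channel (0.77), and CHRNA1, the acetylcholine receptor subunit of muscle (0.69). GRIA1 and GRIA3, also AMPA receptor subunit genes, were at -0.06 and -0.24.

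Of 11 measured pumps and exchangers, 2 were at least 1.5-fold lower and 0 higher, against 5.71% and 11.4% of all measured genes. The median of these 11 was -0.11. The lower genes were the chloride importer gene SLC12A2 (1823 and 1061, log2 ratio -0.78) and the calcium pump gene ATP2B4 (5948 and 3646, log2 ratio -0.71). The sodium pump subunit genes ATP1B1 and ATP1B3 were even, at 0.05 and 0.02. Of 20 measured partners and anchors, 3 were at least 1.5-fold lower and 4 higher, with a median of -0.02. The shares over all measured genes were again 5.71% and 11.4%. SNAP25 and STX1A, release proteins that bind calcium channels, were at -0.96 and -0.79, and the axonal protein gene CNTNAP1 was at -0.70. Higher were the adhesion gene NRCAM (1.29), FGF12, whose product binds sodium channels (0.93), LGI1 (0.87) and DPP10. DPP10, an auxiliary subunit of Kv4 channels, had 323 and 579 (log2 ratio 0.84), while the Kv4 gene KCND2 was the lowest measured channel gene.

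Markers of several cell types also differed between the arrays, some lists towards lower and others towards higher signals in the knockdown. For comparison, the shares past 1.5-fold among all measured genes were 5.71% on the lower side and 11.4% on the higher side. The pan-neuronal list had 19 of 27 measured genes at least 1.5-fold lower and 0 higher, and its summed signal was 162913 in the control and 90554.5 in the knockdown. The progenitor list had 1 of 15 lower and 2 higher, with sums of 236779 and 210590. The muscle and heart list had 14 of 17 measured genes at least 1.5-fold higher and 0 lower, with sums of 30705.6 and 54909.7. Past 1.5-fold were 6 higher and 1 lower of 11 measured blood genes (sums 41323.7 and 80894.4), 7 and 1 of 16 endothelial genes (5962.1 and 7216.6), and 4 and 0 of 9 surface ectoderm genes (9816.1 and 14937.2). Notochord and endoderm genes had 6 of 9 higher and 0 lower (9859.3 and 12489.8), and neural crest and glia genes 1 of 7 higher and 1 lower (15388 and 14351). SNAP25 is in both the partner and the pan-neuronal list, ETS1 in the endothelial and crest lists, and SOX17 in the endothelial and endoderm lists. No signal in the lists was 0. Among channel genes of skeletal muscle, CACNG1 and SCN4A lay below background on both arrays, CACNA1S went from 41.6, below background, to 76.7, and CHRNA1 from 143 to 230.4 (log2 ratio 0.69). The part of these cell types in the channel ratios was not tested.

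The 8 measured channel genes past 1.5-fold kept their direction under every scaling and probe set rule run. Genes under the measured level were not included in this comparison. KCND2, CACNG4, CACNG2 and KCNN2 have 1 probe set each, so the probe set rules returned the same value and only the scalings could move them. Over the scalings, KCND2 ranged from -2.10 to -1.76 and CACNG4 from -1.27 to -1.11, past 2-fold under each. SCN3B ranged from -0.72 to -0.69. KCNJ15 lay below 2-fold with quantile normalization (0.79), loess centring, a constant added before log2 and the mean of all probe sets. CACNA1E came inside 1.5-fold with the mean of all probe sets (-0.49) and KCNMA1 with the mean of measured probe sets (-0.51).

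**Figure D5:**
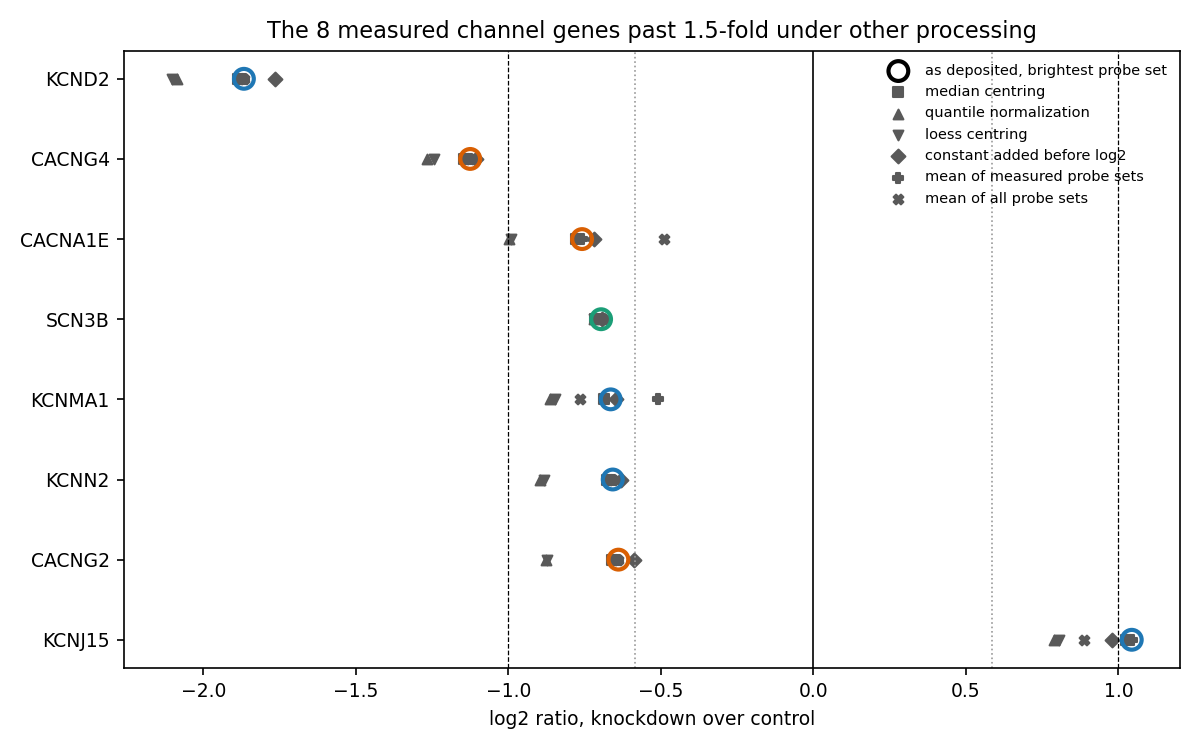
Log2 ratio, knockdown over control (x axis), of the 8 measured channel genes at least 1.5-fold lower or higher (y axis), as deposited (large rings) and under 6 other settings (small markers). Dotted lines mark 1.5-fold and dashed lines 2-fold. KCND2 and CACNG4 stay beyond -1 under all settings, though the probe set rules cannot move a gene with 1 probe set. KCNJ15 ranges from 0.79 to 1.04.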

How the data were processed

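Labelled RNA was prepared from 100 ng of total RNA per sample, per the labels' protocols. The authors deposited 1 linear signal intensity per probe set and array, for which the submitters' processing notes name MAS5 5.0. The deposited intensities have the same trimmed mean of 1000.3 and 1000.2 on the arrays after the highest and lowest 2% of probe sets are removed. Detection calls were not used. From these values log2 ratios were computed with Python 3.11.15 and pandas 2.3.3, with no further scaling. Gene symbols came from the platform annotation. Other genes were updated through Entrez numbers to the RefSeq table of assembly GRCg7b, and channel genes kept their platform symbols; 19 further family symbols of that table are not analysed here. A channel probe set with several symbols was left out.

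Where 1 array lay below background, the fold was taken against that background as a lower bound. Lists were matched by symbol or unambiguous synonym. Members, lists and named genes were chosen with earlier results of these data known. The text names measured members by subfamily, those past 1.5-fold, fixed examples that were found, and up to 4 genes of a pathway list by size of ratio. CHRNA1, GRIA1, GRIA3, DPP10, STX1A, CNTNAP1, ATP1B1 and ATP1B3 were named after their values were seen. The computation was tested on simulated data.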

Additional observations from a re-analysis of the deposited data

How the results depend on the processing

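Alternatives were other scalings, a constant of 11.2 added to both signals, filters at other percentiles, the mean of a gene's probe sets and a 1.5-fold threshold. With no filter or the filter at the 25th percentile, signals were set to at least background. A gene below background on both arrays then took the log2 ratio of the 2 backgrounds, 0.050. The potassium median of -0.07 was -0.29 with quantile normalization, -0.28 with loess centring and -0.22 with the filter at the 75th percentile (5 genes). All measured genes had medians of -0.03, -0.02 and -0.04 there. The potassium median was 0.036 at the 25th percentile (51 genes) and 0.050 with no filter (70 genes). All genes gave 0.050 in both. The value of 0.050 is that ratio of the backgrounds, so its sign was set by the construction. The calcium median of -0.35 was -0.56 and -0.54 with quantile and loess, -0.066 with no filter and -0.18 at the 25th percentile. The value of -0.066 lies midway between the ratio of the backgrounds and the -0.18 of CACNA1C. The sodium median of -0.28 was -0.52 and -0.51 with quantile and loess, and -0.70 at the 75th percentile (SCN3B alone). With all probe sets averaged the sodium median was -0.059, against 0.14 over all genes. With no filter it was 0.050, again the ratio of the backgrounds, as 6 of the 10 genes lay below background on both arrays. Potassium genes at least 2-fold lower numbered 0 at the 75th percentile, which KCND2 does not reach, and 3 at 1.5-fold. Of all measured genes, 0.78% and 5.71% were that much lower. Potassium genes at least 2-fold higher numbered 0 with quantile, loess, the constant and the 75th percentile. There 2.25%, 2.36%, 3.35% and 1.21% of all measured genes were that much higher. They numbered 2 with no filter and at the 25th percentile (KCND3 joins KCNJ15), where the shares of all genes were 3.76% and 4.20%. They also numbered 2 with all probe sets averaged, where the share of all genes was 7.14%. Those were KCNJ5 (1.07) and KCNK7 (1.32), while KCNJ15 was at 0.89. Calcium genes at least 2-fold lower numbered 0 at the 75th percentile, 2 with all probe sets averaged and 3 at 1.5-fold. Of all genes, 0.78%, 2.05% and 5.71% were that much lower. Calcium genes at least 2-fold higher numbered 1 with no filter and at the 25th percentile (CACNA2D2), where the shares of all genes were 3.76% and 4.20%. Sodium genes numbered 1 lower at 1.5-fold (5.71% of all genes) and 1 at least 2-fold higher with the mean of all probe sets (7.14% of all genes). Except where a construction is named, the cause was not tested. Of the 38 measured genes, 25 kept their sign under all 6 scalings and probe set rules, though the probe set rules cannot move a gene with 1 probe set. No paired analysis was possible because each group holds 1 array, and for the same reason no sample could be left out. Of the 99 genes, 49 lay at or below background on at least 1 array, which limits their folds to bounds or none.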
